A study of Mus musculus with 2 samples.

Results

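The neurotrophins are a small family of secreted growth factors, and the genes described here are 3 ligand genes, Bdnf, Ntf3 and Ntf5 (the gene of neurotrophin 4), and 3 receptor genes, Ntrk2, Ntrk3 and Ngfr. They were chosen by name with the assigned peaks of this series already known, so their presence or absence in the gene table is a description and not a test. Of these 6 genes, 2 had at least 1 POU3F1 peak assigned to them, Bdnf with 2 peaks and Ntrk2 with 1, out of 2323 gene names and 2652 peaks in the series. Ntf3, Ntf5, Ntrk3 and Ngfr had no row in the gene table and thus no assigned peak. Over all protein-coding genes, 10.2% had an assigned peak, and 3.85% had 2 or more as Bdnf did. With 2 of 6 genes, no reading against this background is made.

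The data came from CUT&RUN, in which an antibody brings a nuclease to a chromatin protein and the DNA cut loose around it is sequenced. Both libraries were made from retina of wild-type CD1 mice at embryonic day 14. For 1 library the antibody was directed at POU3F1, a transcription factor with a POU domain, and the other used rabbit IgG, an antibody with no intended chromatin target, whose own signal was not analysed here. With 1 library per antibody, no value has a replicate error. The labels name no sort of cells, so a peak cannot be placed in one retinal cell type, and the number of embryos is not given in the sources used here.

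Neurotrophins are made as precursors, are cleaved and secreted, and bind receptor tyrosine kinases of the Trk family. BDNF and neurotrophin 4 bind TrkB, the product of Ntrk2, and neurotrophin 3 binds TrkC, the product of Ntrk3. All of them, and more strongly their uncleaved precursors, also bind the p75 receptor encoded by Ngfr. In the visual system, BDNF acts on retinal ganglion cells through TrkB and is known for supporting their survival and shaping the branching of their axons in the brain. Bdnf is transcribed from several alternative promoters, each joined to one shared protein-coding exon.

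The sequences that bear on the Bdnf locus are promoter sequences, because those of the peaks themselves were not analysed here. They are the 250 bases before a start site, taken from RefSeq (GRCm38.p6, the assembly of mm10) and printed 5′ to 3′ on the strand of the gene. They serve to show POU-like letters in Bdnf promoters whose start sites lie 3058 and 11915 bp from the midpoint of the intragenic peak. Such letters are common, since 18.6% of all promoter windows hold a match with at most 1 mismatch. Both Bdnf promoters that hold a match to the POU octamer with at most 1 mismatch are shown, and they also flank the peak inside Bdnf (chr2:109694159-109694408 and chr2:109709133-109709382, plus strand). Beside them stands the promoter of Lgr4 (chr2:109917397-109917646, plus strand), which lies in the same 1 Mb window under a POU3F1 peak. Capitals mark matches to the octamer ATGCAAAT, on either strand, with at most 1 mismatch.
Bdnf promoter before the peak: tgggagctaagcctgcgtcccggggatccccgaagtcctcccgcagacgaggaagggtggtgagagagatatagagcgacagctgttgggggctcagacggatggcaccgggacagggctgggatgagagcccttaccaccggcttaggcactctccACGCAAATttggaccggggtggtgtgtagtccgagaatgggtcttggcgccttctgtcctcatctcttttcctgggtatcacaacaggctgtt
Bdnf promoter after the peak: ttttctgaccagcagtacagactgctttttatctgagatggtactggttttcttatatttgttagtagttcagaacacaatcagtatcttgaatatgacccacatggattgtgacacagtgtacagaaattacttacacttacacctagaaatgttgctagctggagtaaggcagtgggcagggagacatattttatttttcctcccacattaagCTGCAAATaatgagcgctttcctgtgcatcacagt
Lgr4 promoter under a peak: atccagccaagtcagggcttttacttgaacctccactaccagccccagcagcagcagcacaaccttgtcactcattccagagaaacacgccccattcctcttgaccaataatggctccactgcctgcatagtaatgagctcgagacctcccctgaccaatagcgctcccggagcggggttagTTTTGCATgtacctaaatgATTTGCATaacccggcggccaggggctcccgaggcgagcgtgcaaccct

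The intragenic Bdnf peak lay on chromosome 2: 109697313 to 109697621 (mm10), wholly inside the annotated gene body, which runs from 109674700 to 109727043 on the plus strand. It was 309 bp long and had a fold of 5.89, which is the authors' ratio over background. The fold was taken here as the fragment number at the summit plus 1 over that of the background plus 1. The q-value of the peak was 6.06e-06. The gene table placed it 22767 bp downstream of the transcription start site. Few genes were touched by any peak, 3.74% of 21631 protein-coding genes on the autosomes and chromosome X. Exons and introns were not separated here.

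The distance of 22767 bp was measured from the most upstream Bdnf start site, and the gene has 7 RefSeq start sites spread over 48.2 kb. Of these, 5 lay before the peak and 2 after it. The nearest, at 109694409, was 3058 bp upstream of the peak's midpoint, followed by sites 4440 and 5031 bp upstream. On the other side, the next start site was 11915 bp downstream of the midpoint. The peak was therefore within 5 kb of a Bdnf promoter only when the internal start sites were counted. Among 3386 placed pairs of a gene and a peak with RefSeq start sites, 294 were within 5 kb by the distance of the gene table and 321 by the nearest start site of the same gene.

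The second Bdnf peak lay downstream of the gene, on chromosome 2: 109743627 to 109743861, at 16.6 kb past the annotated end. It was 235 bp long, had a fold of 6.16 and a q-value of 6.07e-10, and was assigned to Bdnf at 69044 bp downstream of the start site. It overlapped no gene of the RefSeq table, and a pseudogene, Gm13932, began 48.1 kb further on. The Bdnf peaks were 46.0 kb apart. Both were also assigned to Lin7c, which encodes a PDZ-domain scaffold protein of epithelial and synaptic junctions, at 193386 and 147109 bp upstream of its start site, so Bdnf was the nearer gene for each.

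The single Ntrk2 peak lay beyond the far end of its gene. It spanned chromosome 13: 59144244 to 59144497, 254 bp, with a fold of 6.39 and a q-value of 5.55e-07. The gene body runs from 58806472 to 59133970 on the plus strand, so the peak began 10.3 kb past its end and its midpoint was 336673 bp downstream of the start site used in the gene table. The RefSeq start site of Ntrk2 was 1129 bp before that one. Agtpbp1, which encodes a carboxypeptidase that trims tubulin tails, was assigned the same peak, 412941 bp downstream of its start site.

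A long non-coding RNA gene sat under the Ntrk2 peak. Gm34307 (59144259 to 59145835, minus strand, the strand opposite to Ntrk2) covered 94.1% of the peak, including its summit. The peak was at the 3′ end of this 1577 bp locus, with 1464 bp between its midpoint and the Gm34307 start site. The function of this RNA is not given in the sources used here.

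**Figure D1:**
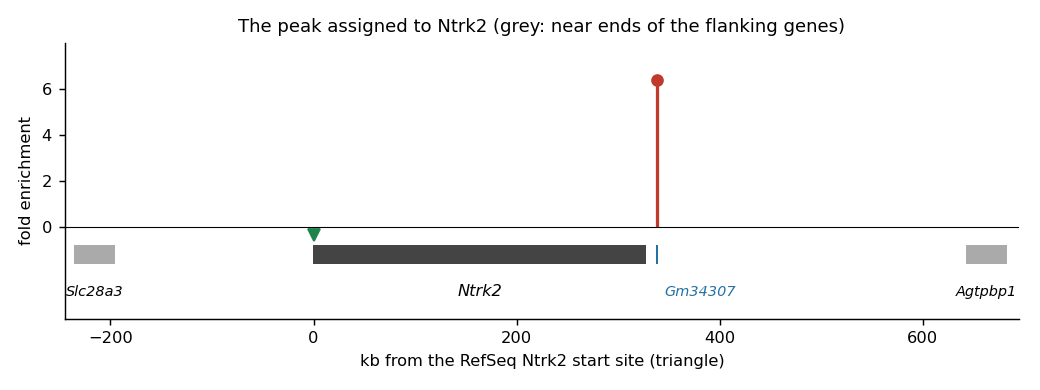
Position (kb from the RefSeq Ntrk2 start site) and fold of the peak assigned to Ntrk2, with gene bodies below. Grey blocks mark the near ends of the flanking genes and are not drawn to their full length. The one peak, at 6.39-fold, stands past the end of Ntrk2, over Gm34307.

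All of the member peaks were ordinary in enrichment, and all but the downstream Bdnf peak had fewer fragments than the lower quartile of all peaks. Summit fragment numbers were recovered from the deposited fold and p-value. The intragenic Bdnf peak had 11 fragments at its summit (95% exact Poisson interval 5.49 to 19.7), the downstream Bdnf peak 21 (13.0 to 32.1), and the Ntrk2 peak 12 (6.2 to 21.0). These intervals cover no more than counting error, and they are too narrow if PCR copies, which are not independent molecules, are among the fragments. They overlap each other and set no order of the 3 peaks by fragment number, which was not tested. The background that enters the fold and the q-value is not part of them. The median over all peaks was 19 fragments, with quartiles of 13 and 33.

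By fold, 43.0% of all peaks were lower than the intragenic Bdnf peak, 47.7% lower than the downstream one and 50.3% lower than the Ntrk2 peak. The median fold of all peaks was 6.37, with quartiles of 4.91 and 8.84. By significance the intragenic Bdnf peak stood lower: 24.1% of peaks had a weaker q-value, against 51.2% for the downstream Bdnf peak and 32.0% for Ntrk2. The recovered background of the intragenic Bdnf peak and of the Ntrk2 peak was 1.04 fragments, while that of the downstream Bdnf peak was 2.57. The value of 1.04 was the lowest, shared by 790 (30.2%) of the 2612 peaks with a recovered fragment number. Whether it is a level of the whole genome or of the surroundings of each peak is not given in the sources used here. Fragment numbers are whole, so identical values recur: 76 peaks, the intragenic Bdnf peak among them, had exactly its fold and p-value, and 68 had those of the Ntrk2 peak.

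**Figure D2:**
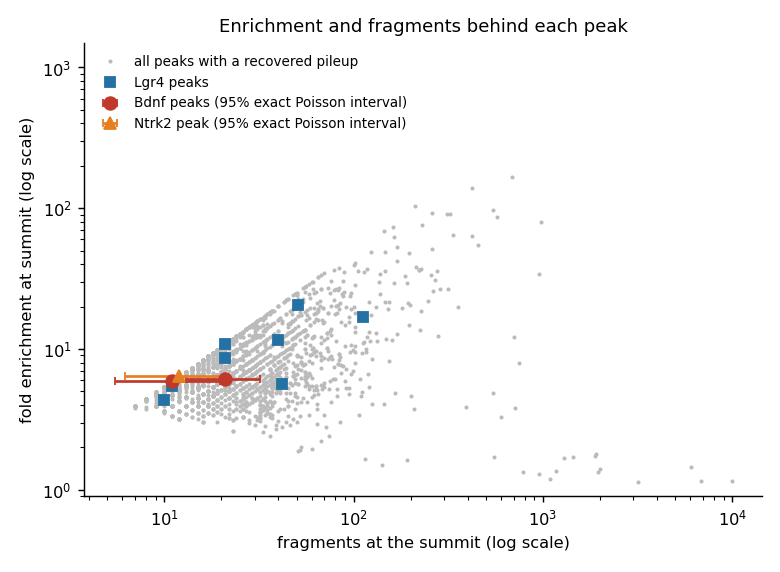
Fragments at the summit against fold enrichment for the peaks whose fragment number was recovered, both on log scales. Horizontal bars are 95% exact Poisson intervals. The Bdnf and Ntrk2 peaks lie in the dense lower left part, near 6-fold, while the Lgr4 peaks reach 20.5-fold.

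The whole megabase of chromosome 2 that contains Bdnf held many peaks, but few of them were assigned to Bdnf. There were 12 peaks, of which 8 were assigned to Lgr4, 2 to Mettl15 and 2 to Bdnf. Of 2470 consecutive 1 Mb tiles of the autosomes, 8 (0.324%) held 12 or more, and the median tile held 0. The window was chosen with its peaks known, so its place among the tiles is a description.

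Lgr4, which encodes a receptor for R-spondins that raises Wnt signalling, carried the strong peaks of the window. Its 8 peaks had a median fold of 9.73 and ranged from 4.33 to 20.5, and 5 of them were above both Bdnf peaks. The one at its promoter (109917217 to 109917939, 69 bp upstream of the start site) had a fold of 17.0 and 112 fragments at the summit (exact Poisson interval 92.2 to 135). The strongest, at 109989277 to 109990262, lay 72122 bp downstream and had a fold of 20.5 with 51 fragments. It was also assigned to Ccdc34, whose start site was nearer, and 6 of the 8 Lgr4 peaks were shared with that gene. The Lgr4 promoter peak was 243 kb from the upstream-most Bdnf start site, with Lin7c in between. None of the Lgr4 peaks was assigned to Bdnf.

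The other genes of the window had weaker peaks or none. Mettl15, a gene of mitochondrial ribosomal RNA methylation, had a peak of 6.09-fold inside its body (109106142 to 109106417) and one of 3.75-fold (109038332 to 109038600) beyond it. Lin7c had the Bdnf peaks alone, and Kif18a, a mitotic kinesin gene, had no assigned peak. No peak lay between the inner Mettl15 peak, at -568 kb from the upstream-most Bdnf start site, and the intragenic Bdnf peak.

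**Figure D3:**
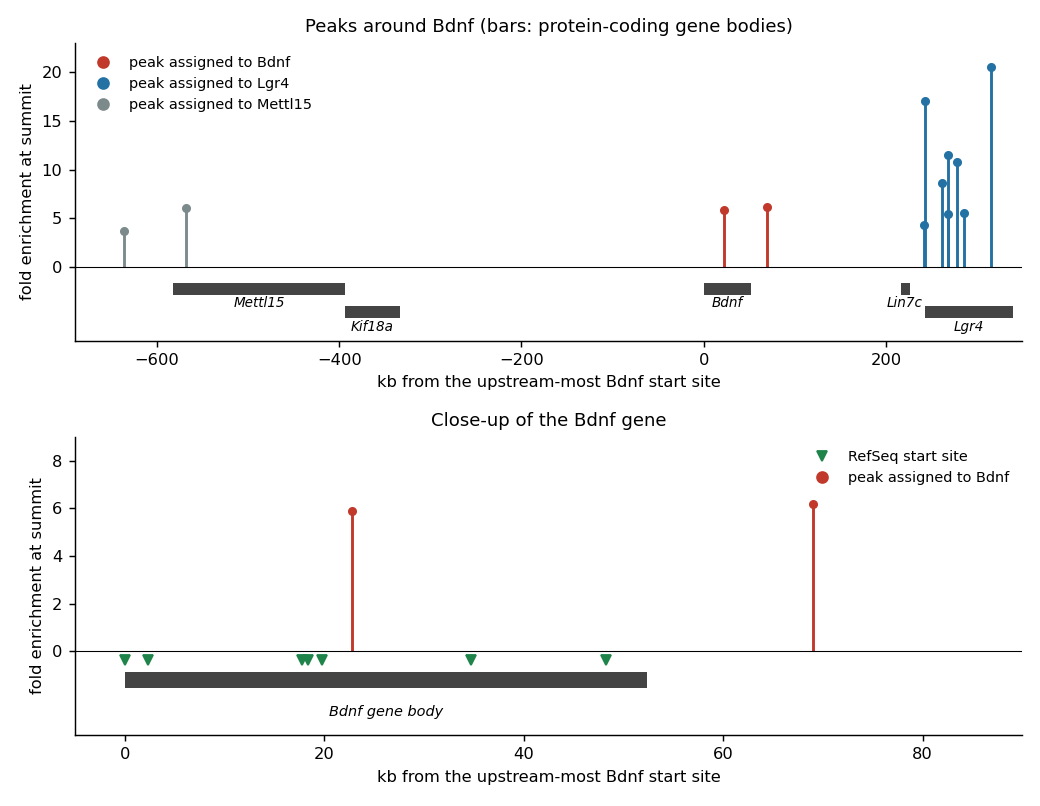
Fold of each peak in the window against its distance in kb from the upstream-most Bdnf start site, with gene bodies as bars, and a close-up of Bdnf with its 7 RefSeq start sites as triangles. The Bdnf peaks stand alone at about 6-fold, one after the fifth start site and one past the gene, while 8 peaks crowd over Lgr4.

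The 4 genes without an assigned peak differed widely in how far the nearest peak was. For Ngfr, the p75 receptor gene (chromosome 11: 95568818 to 95587698, minus strand), it lay 79.0 kb before the gene's start, at 95666722 to 95666930, with a fold of 12.8 and 25 fragments. That peak was at the promoter of Phb, the prohibitin gene, at -131 bp from its start site, and was assigned to Phb alone. For Ntrk3 (chromosome 7: 78179986 to 78581034) the nearest peak was 246 kb past the higher coordinate, at 78826957 to 78827258, with a fold of 10.8. It was assigned to Det1 and Mrps11.

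For the ligand Ntf5 (chromosome 7: 45413695 to 45417179) the gap was 351 kb, to a peak of 3.67-fold near the start sites of Nosip and Prrg2. For Ntf3 (chromosome 6: 126101412 to 126166772, minus strand) it was 1092482 bp, to a peak of 5.89-fold at -485 bp from the start site of Zfp384. Counted over 21631 protein-coding genes, 12.0% had a peak at least as near as that of Ngfr, 26.6% as that of Ntrk3, 34.0% as that of Ntf5 and 69.6% as that of Ntf3. The median gap over those genes was 616 kb. The gaps at Ngfr, Ntrk3 and Ntf5 were thus shorter than that of the median gene, and that at Ntf3 longer.

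The space around each gene differed as well, and the gene table assigns peaks only up to the domains of neighbouring genes. Between its flanking protein-coding genes, Bdnf had 549 kb (2 peaks), Ntrk2 839 kb (1 peak), Ntf3 492 kb (none) and Ntrk3 1650 kb (none). Ngfr had 152 kb, with the Phb promoter peak at its edge, and Ntf5 lay in 6.22 kb between Kcna7 and Lhb. Ntrk3 thus had the widest interval of the 6 genes and no peak in it.

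**Figure D4:**
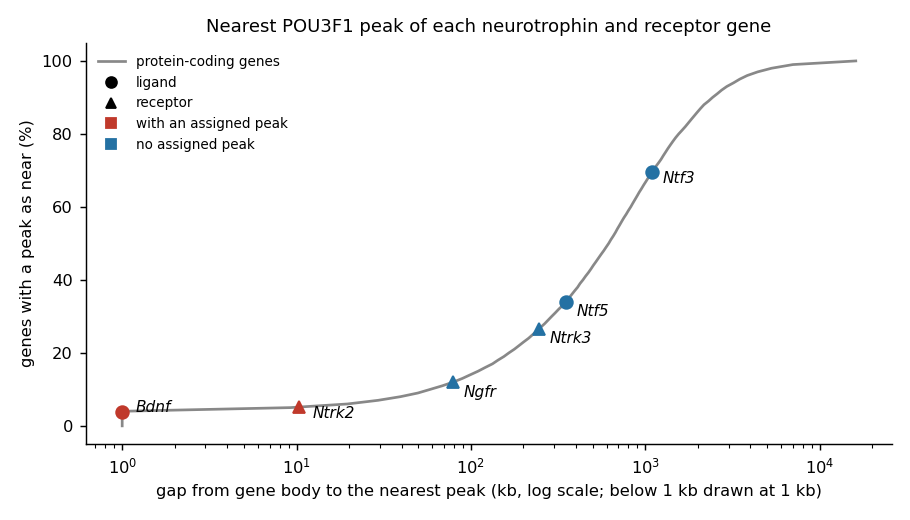
Gap from each gene body to the nearest peak (kb, log scale) against the percentage of protein-coding genes with a peak as near, drawn on the curve of all those genes. Circles are ligand genes and triangles receptor genes. Bdnf holds a peak and Ntrk2 has one 10.3 kb away, and the remaining 4 genes follow from Ngfr at 79.0 kb to Ntf3 beyond 1000 kb.

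No member promoter in the RefSeq table lay under a peak summit, so the sequences describe the promoters and not binding. The table had 11 windows of 300 bases (250 before to 50 after a start site) for 4 of the 6 genes: 7 for Bdnf, 2 for Ntf3 and 1 each for Ntrk2 and Ngfr. None held the exact octamer ATGCAAAT, the best-known binding sequence of POU factors, found in 1.74% of all 32851 windows. At so low a share, 11 windows are too few for its absence to set the members apart. With at most 1 mismatch, 2 Bdnf windows matched and those of the other genes had no match, against 18.6% of all windows. In the promoter before the intragenic peak the match ACGCAAAT began 93 bases before the start site. In the one after it, CTGCAAAT began 35 bases before the start site and shared its last base with a match to TAATNA, a homeodomain core, which read TAATGA.

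The homeodomain core TAATNA, searched on both strands, was in 4 of the 7 Bdnf windows and in none of Ntf3, Ntrk2 or Ngfr. It was in 26.5% of all windows. Of the windows that held a peak summit, 57.5% matched the octamer with at most 1 mismatch and 45.9% the homeodomain core. The Bdnf windows are promoters of 1 gene and are not independent.

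The Lgr4 promoter held the exact octamer under its peak. The match reads on the gene's strand as the reverse complement ATTTGCAT. It began 49 bases before the start site, and its centre was 53 bp from the peak summit. TTTTGCAT, with 1 mismatch, began 68 bases before the start site, and its centre was 34 bp from the summit. Over all promoter windows that held a peak summit, 39 of 146 (26.7%) held the exact octamer. With histone genes left out it was 28 of 113 (24.8%), against 1.69% of all windows without histone genes. Windows of 1 gene can overlap, and a match is a description of letters, not a bound site.

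**Figure D5:**
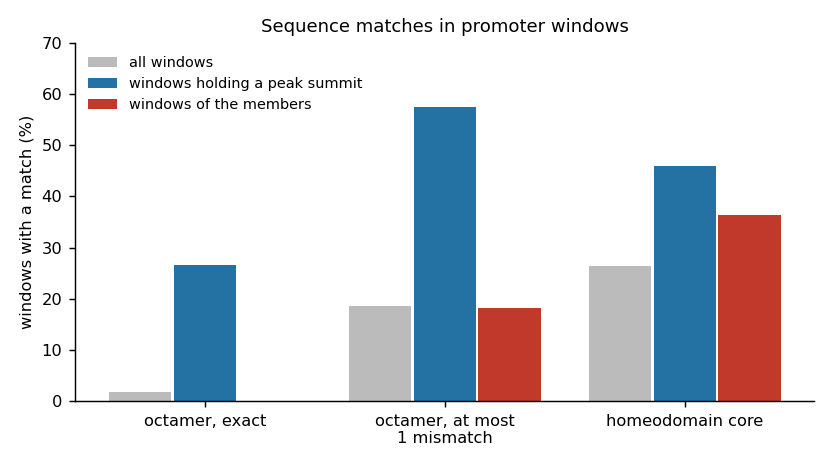
Percentage of RefSeq promoter windows with a sequence match, for all 32851 windows, the 146 windows that hold a peak summit and the 11 windows of Bdnf, Ntf3, Ntrk2 and Ngfr. The exact octamer was in 1.74%, 26.7% and none of them, and 11 windows are too few to set none apart from 1.74%.

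Genes that carry neurotrophin signals were looked up in the same gene table. In a list of 54 genes from ligands to induced genes, drawn up from general knowledge and including the 6 genes above, 8 had a peak (14.8%), beside 10.2% of protein-coding genes. Bdnf and Ntrk2 are among these 8 and were chosen with their peaks known, so the share is not independent of that choice. By class it was 1 of 3 ligands, 1 of 3 receptors, 1 of 7 co-receptors, 4 of 23 adaptors and effectors of the Trk receptors, and 1 of 6 induced genes. None of the 8 adaptors of p75 and none of the 4 proteases that cleave neurotrophin precursors or their activators had one. Genes with wide domains can receive more peaks under this assignment, and domain width was not taken into account.

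Downstream of the receptors, the peaks ranged from a promoter to distant sites. Dusp6, which encodes a phosphatase that switches off ERK and is induced by it, had the only promoter peak, on chromosome 10: 99263070 to 99263279, 57 bp upstream of the start site, with a fold of 5.26 and 34 fragments. Its promoter (chr10:99262981-99263230, plus strand) is shown because a peak lies on it. It held no octamer match with up to 1 mismatch, and capitals mark its only match to TAATNA, on the opposite strand.
Dusp6 promoter under a peak: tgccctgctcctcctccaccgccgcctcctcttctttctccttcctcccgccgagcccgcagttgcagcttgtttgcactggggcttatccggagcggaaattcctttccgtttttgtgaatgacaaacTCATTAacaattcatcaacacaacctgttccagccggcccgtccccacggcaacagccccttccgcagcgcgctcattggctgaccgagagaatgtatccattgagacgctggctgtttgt

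Pik3r1, the regulatory subunit of PI3-kinase, had 6 peaks, the strongest 186424 bp upstream (18.7-fold, 37 fragments), and the other 5 were farther away than that. Each was also assigned to Cd180 or Slc30a5. Sorcs1, a sortilin-family sorting receptor gene, had 3, with 12.3-fold at 38235 bp and 7.26-fold at 36318 bp downstream of the start site, and the third at 803899 bp upstream. The near pair was also assigned to Rpl13a-ps1 and the distant peak to Ins1. Gab2 and Sh2b2, docking and adaptor proteins of receptor kinases, had 1 peak each, 14739 and 52094 bp upstream, both at 7.37-fold with 14 fragments, shared with Nars2 and Cux1 in that order. Creb1, a transcription factor activated by TrkB signalling, had 1 of 4.91-fold at 339200 bp upstream, on 9 fragments, and shared it with Klf7. Within 50 kb of the start site, where 3.66% of protein-coding genes had a peak, Bdnf, Sorcs1, Gab2 and Dusp6 kept 1 or more. Of these, Bdnf was chosen with its peaks known.

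By number of peaks and strongest fold, the genes most like Bdnf were tied. Of 429 genes outside the lists with 2 placed peaks, Lin7c, Nrg3 and Sh2d4b had a strongest fold equal to that of Bdnf, 6.16. Lin7c had the same peaks as Bdnf. Nrg3, the gene of a neuregulin, had its peaks at -751445 and -471771 bp from its start site, and Sh2d4b was assigned that same pair. Genes with 2 peaks made up 19.2% of the gene table and genes with 1 peak, as Ntrk2 had, 62.0%.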

How the data were processed

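CUT&RUN was done on E14 retina with 1 POU3F1 and 1 rabbit IgG library. The submitters' processing notes name Bowtie2, MACS2, deepTools and mm10, without versions. Per the file headers, the gene table came from GREAT 4.0.4 (5000 bp upstream, 1000 bp downstream, extension up to 1000000 bp, curated domains). The authors' deposited peak list gives a fold (ratio) over background, −log10 p and q-values and a score. Whether IgG served as the control is not given in the sources used here.

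Of 2323 gene names, 2270 matched RefSeq GRCm38.p6, and 4307 of 4427 distances (97.3%) were placed on a peak midpoint within 1 bp. For a gene with 1 distance (62.0% of the gene table, Ntrk2 included), that fit is automatic. The peak taken was then the one that put the start site closest to RefSeq, in the gene or within 20 kb of it. Whole summit pileups, recovered within 0.001 of −log10 p from fold = (pileup + 1)/(background + 1) and a Poisson tail, fitted 2612 peaks (98.5%). Library depth is unknown. On data simulated with these same rules, 100% of 500 pileups and 100% of 267 placements were recovered. That checks the code and not whether the deposited values follow the rules. Python 3.11.15, pandas 2.3.3 and scipy 1.17.1 were used.

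Members, lists and named genes (members, genes sharing their peaks or window, list genes with a peak, and those most like Bdnf) were chosen with earlier results of these data known. Some genes of the pathway list are not reported here. No test was made. Alternatives were stricter peak thresholds, shorter distances, the nearest gene alone, and looser motifs.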

Additional observations from a re-analysis of the deposited data

How the results depend on the processing

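No paired analysis was possible because there was 1 library per antibody and no test. Of 33 alternative counts over 7 results, 22 were classed as near the reported one. That class was loose for small counts, since it took in 3 members against 2. With the nearest gene alone, it also took in 2 other neurotrophic factor genes against 3 and 7 pathway genes against 8. At a fold of at least 10, no member kept a peak (0 of 6 genes and 0 pairs against 2 and 3). The pathway list kept 2 genes, the other neurotrophic factors 0 and the Bdnf window 4 peaks. The share of all protein-coding genes at that fold was not counted, so these counts set no gene group apart. The upper quartile of fold over all peaks was 8.84. Within 50 kb of the start site, 1 member with 1 pair was left, the pathway list had 4 genes and the other neurotrophic factors 0. Of all protein-coding genes, 3.66% had a peak that near. With at most 1 mismatch, 2 member promoters matched the octamer against 0. Counting peaks within 5 kb of any RefSeq start site, chosen after seeing the data, left 1 member. Counting peaks between flanking genes, also chosen after seeing the data, gave 3 members, since the Phb promoter peak then fell to Ngfr. For neither of these rules was the share of all protein-coding genes counted, so no reading of the member counts is made. All member peaks kept a q-value under 0.001. Few fragments per summit limit the order of these peaks.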

Other observations

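Other families of neurotrophic factors included genes with assigned peaks. Of 15 genes of the GDNF, CNTF and LIF families and their receptors, 3 had an assigned peak, beside 10.2% of protein-coding genes. They were Gfra1 and Gfra2, co-receptor genes for GDNF and neurturin, and Il6st, which encodes the shared signalling subunit gp130. The 2 Gfra1 peaks lay 119160 and 616848 bp downstream of the start site, with folds of 3.67 and 9.44, and both were also assigned to Atrnl1. Those of Gfra2 lay 195840 and 719792 bp downstream, with folds of 3.92 and 7.20. Il6st had a peak of 3.39-fold on 107 fragments, 114381 bp downstream, also assigned to Il31ra. Closer than 50 kb to their start sites these 3 genes had no peak, and the ligand genes Gdnf, Nrtn, Artn, Pspn, Cntf, Lif and Osm had no assigned peak.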
